A study of Mus musculus with 359 samples.

Results

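The 10 genes described here make pulmonary surfactant or mark the alveolar type 2 cell that makes it. They were taken by name from the lung count tables: Sftpc, Sftpb, Sftpa1, Sftpd, Abca3, Lamp3, Slc34a2, Etv5, Napsa and Lpcat1, 10 of 24421 genes. All 10 were found in each of the 3 tables and all 10 passed the filter on low counts. The lungs were those of B6C3F1 mice of both sexes that had received 4-methylimidazole (4-MEI), a small imidazole, and gene expression had been read by RNA sequencing. On day 2 the mice had been dosed by gavage with vehicle or 50, 100, 200 or 300 mg/kg-d. On days 5 and 28 the compound was in the feed, at 0 (vehicle), 150, 300, 1250 or 2500 ppm. These 2 sexes, 3 days and 5 doses gave 30 groups and 179 libraries, 6 in each group except 5 in the females of 2500 ppm on day 5. B6C3F1 is the hybrid of the C57BL/6 and C3H strains, and no allele, transgene or other agent is named for any group. The age of the mice is not given in the labels used here, and route differs between day 2 and the later days, so day and route cannot be told apart there.

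Type 2 cells lie in the corners of the alveoli. They store surfactant lipid in lamellar bodies, release it to lower surface tension, and divide to replace the flat type 1 cells that form the gas exchange surface. Surfactant proteins B and C are small hydrophobic proteins that spread the lipid film, while surfactant proteins A and D are collagen-like lectins that bind microbes and take part in surfactant turnover. Club cells of the small airways also express several of these genes, so their level in whole lung is not from type 2 cells alone.

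The genes lie on 7 chromosomes of GRCm38 (GENCODE M21). Sftpc is at chr14:70520949-70524081 on the minus strand. Sftpa1 (chr14:41131782-41136452, plus strand) and Sftpd (chr14:41172214-41185149, minus strand) are 35761 bases apart. Sftpb is at chr6:72304610-72314371, Slc34a2 at chr5:53038081-53071664, Abca3 at chr17:24351950-24410201, Napsa at chr7:44572380-44586862 and Lpcat1 at chr13:73467197-73516422, all on the plus strand. Lamp3 (chr16:19653378-19706375) and Etv5 (chr16:22381309-22439719) share chromosome 16, on the minus strand. Exons of Abca3 overlap those of D330041H03Rik on the other strand, and exons of Napsa overlap those of the antisense Gm15396. The strand setting of the counting is not given in the sources used here, so reads of these pairs may not have been told apart.

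NKX2-1, the homeodomain factor that drives surfactant genes in lung epithelium, binds sites built on the core CAAG. The 250 bases before the start of 2 genes are shown because they are the surfactant protein promoters that were matched, and because Nkx2-1 itself passed the test in the results that follow. Capitals mark CAAG and its complement CTTG, so both strands were searched. The sequences are from RefSeq (GRCm38.p6), 5′ to 3′ on the gene's strand.
Sftpb, chr6:72304360-72304609, plus strand: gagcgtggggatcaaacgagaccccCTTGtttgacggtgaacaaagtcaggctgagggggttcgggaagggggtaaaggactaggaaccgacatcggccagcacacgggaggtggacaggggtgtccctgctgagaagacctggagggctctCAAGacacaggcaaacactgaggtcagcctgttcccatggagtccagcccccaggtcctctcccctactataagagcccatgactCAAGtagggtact
Sftpa1, chr14:41131538-41131787, plus strand: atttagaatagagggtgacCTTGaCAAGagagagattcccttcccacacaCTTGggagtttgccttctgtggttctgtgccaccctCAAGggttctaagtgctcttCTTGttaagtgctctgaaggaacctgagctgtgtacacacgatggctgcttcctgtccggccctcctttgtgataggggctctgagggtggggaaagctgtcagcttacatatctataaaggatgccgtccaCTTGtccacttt
The stretch before Sftpb held 3 matches, a number reached by 37% of 32851 promoters of the same length. Sftpa1 held 6, reached by 2.90%. So short a core occurs in most promoters: 86.6% had at least 1 match and the median was 2. Abca3 had 2 matches, Lamp3 and Etv5 had 1, and Slc34a2 and Lpcat1 had 0. Promoters of 7 of the 10 genes were matched, and Sftpc, Sftpd and Napsa were not. A match is a string of letters in this window and was not measured as a bound site.

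Reads per library ranged from 7253910 to 20232366 on day 2, from 8081043 to 21473135 on day 5 and from 11692340 to 18207432 on day 28. The 10 genes took a median of 3.0%, 3.08% and 2.97% of all counts on the 3 days. Sex and dose were taken from sample titles. In 48 lung libraries of day 28 the characteristics name another dose, and in 24 of these another sex, while Y-linked genes matched the sex in the title in all 179 libraries and the sex in the characteristics in all but 24. The dose itself could not be checked in this way. Nothing in the labels used here says more of the libraries of a group than a number, so p-values measure the spread between these libraries.

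The tissue label was held against the same genes in liver of the 36 vehicle libraries. Sftpc had no count in 26 of the 36 liver libraries and at most 0.164 CPM (read counts scaled to a fixed library total), against a median of 16984 CPM in the 36 vehicle lungs. Sftpb had none in 31, and its lung median was 4182 CPM. Median liver levels of Sftpa1, Sftpd, Lamp3, Slc34a2, Napsa, Lpcat1 and Etv5 lay between 0.355 CPM (Napsa) and 3.65 CPM (Etv5). Abca3, the ATP-binding cassette transporter that loads phospholipid into lamellar bodies, was the exception, with 215 CPM in liver (85.7 to 346) against 604 in lung.

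Per length, Sftpc was the most abundant of the 10 genes by a wide margin. With counts divided by the length of all exons of a gene, vehicle lungs of day 2 held 15644 ± 926 CPM per kb of Sftpc (SD, n = 12), against 2062 ± 120 of Sftpb and 1587 ± 86.2 of Sftpa1. Slc34a2, the sodium phosphate cotransporter of the type 2 cell surface, followed with 480 ± 36.8 and Sftpd with 392 ± 36.5, and the ranges of these neighbours overlapped. Lamp3, a lysosomal membrane protein of lamellar bodies, stood at 214 ± 19.3. Napsa, the aspartic protease that helps cut the precursor of surfactant protein B, was at 148.2 ± 11.3. The last 3 were Abca3 at 69.8 ± 6.29, Lpcat1 at 55.4 ± 6.30 and Etv5 at 47.1 ± 3.55, each overlapping its neighbour. Lpcat1 acylates lysophosphatidylcholine to the main surfactant lipid, and Etv5 is an ETS transcription factor downstream of FGF signals.

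The order by all exons was the same on days 5 and 28, where Sftpc stood at 17355 ± 1249 and 16471 ± 1066 CPM per kb. On day 28 the ranges of Sftpb and Sftpa1, and of Lamp3 and Napsa, overlapped as well. The order depended on which length was used. With the longest coding transcript Sftpd came before Slc34a2 and Napsa before Lamp3, and with the shortest coding transcript Sftpa1 reached 5333 CPM per kb on day 2, above the 3588 of Sftpb. Not scaled to length, the median over all libraries of a day was 15648, 16962 and 15993 CPM for Sftpc, 3926, 4086 and 4073 for Sftpb, and 4676, 4127 and 4054 for Sftpa1 on days 2, 5 and 28. Each day is a table of its own, so levels set across days also carry any difference between tables.

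**Figure D1:**
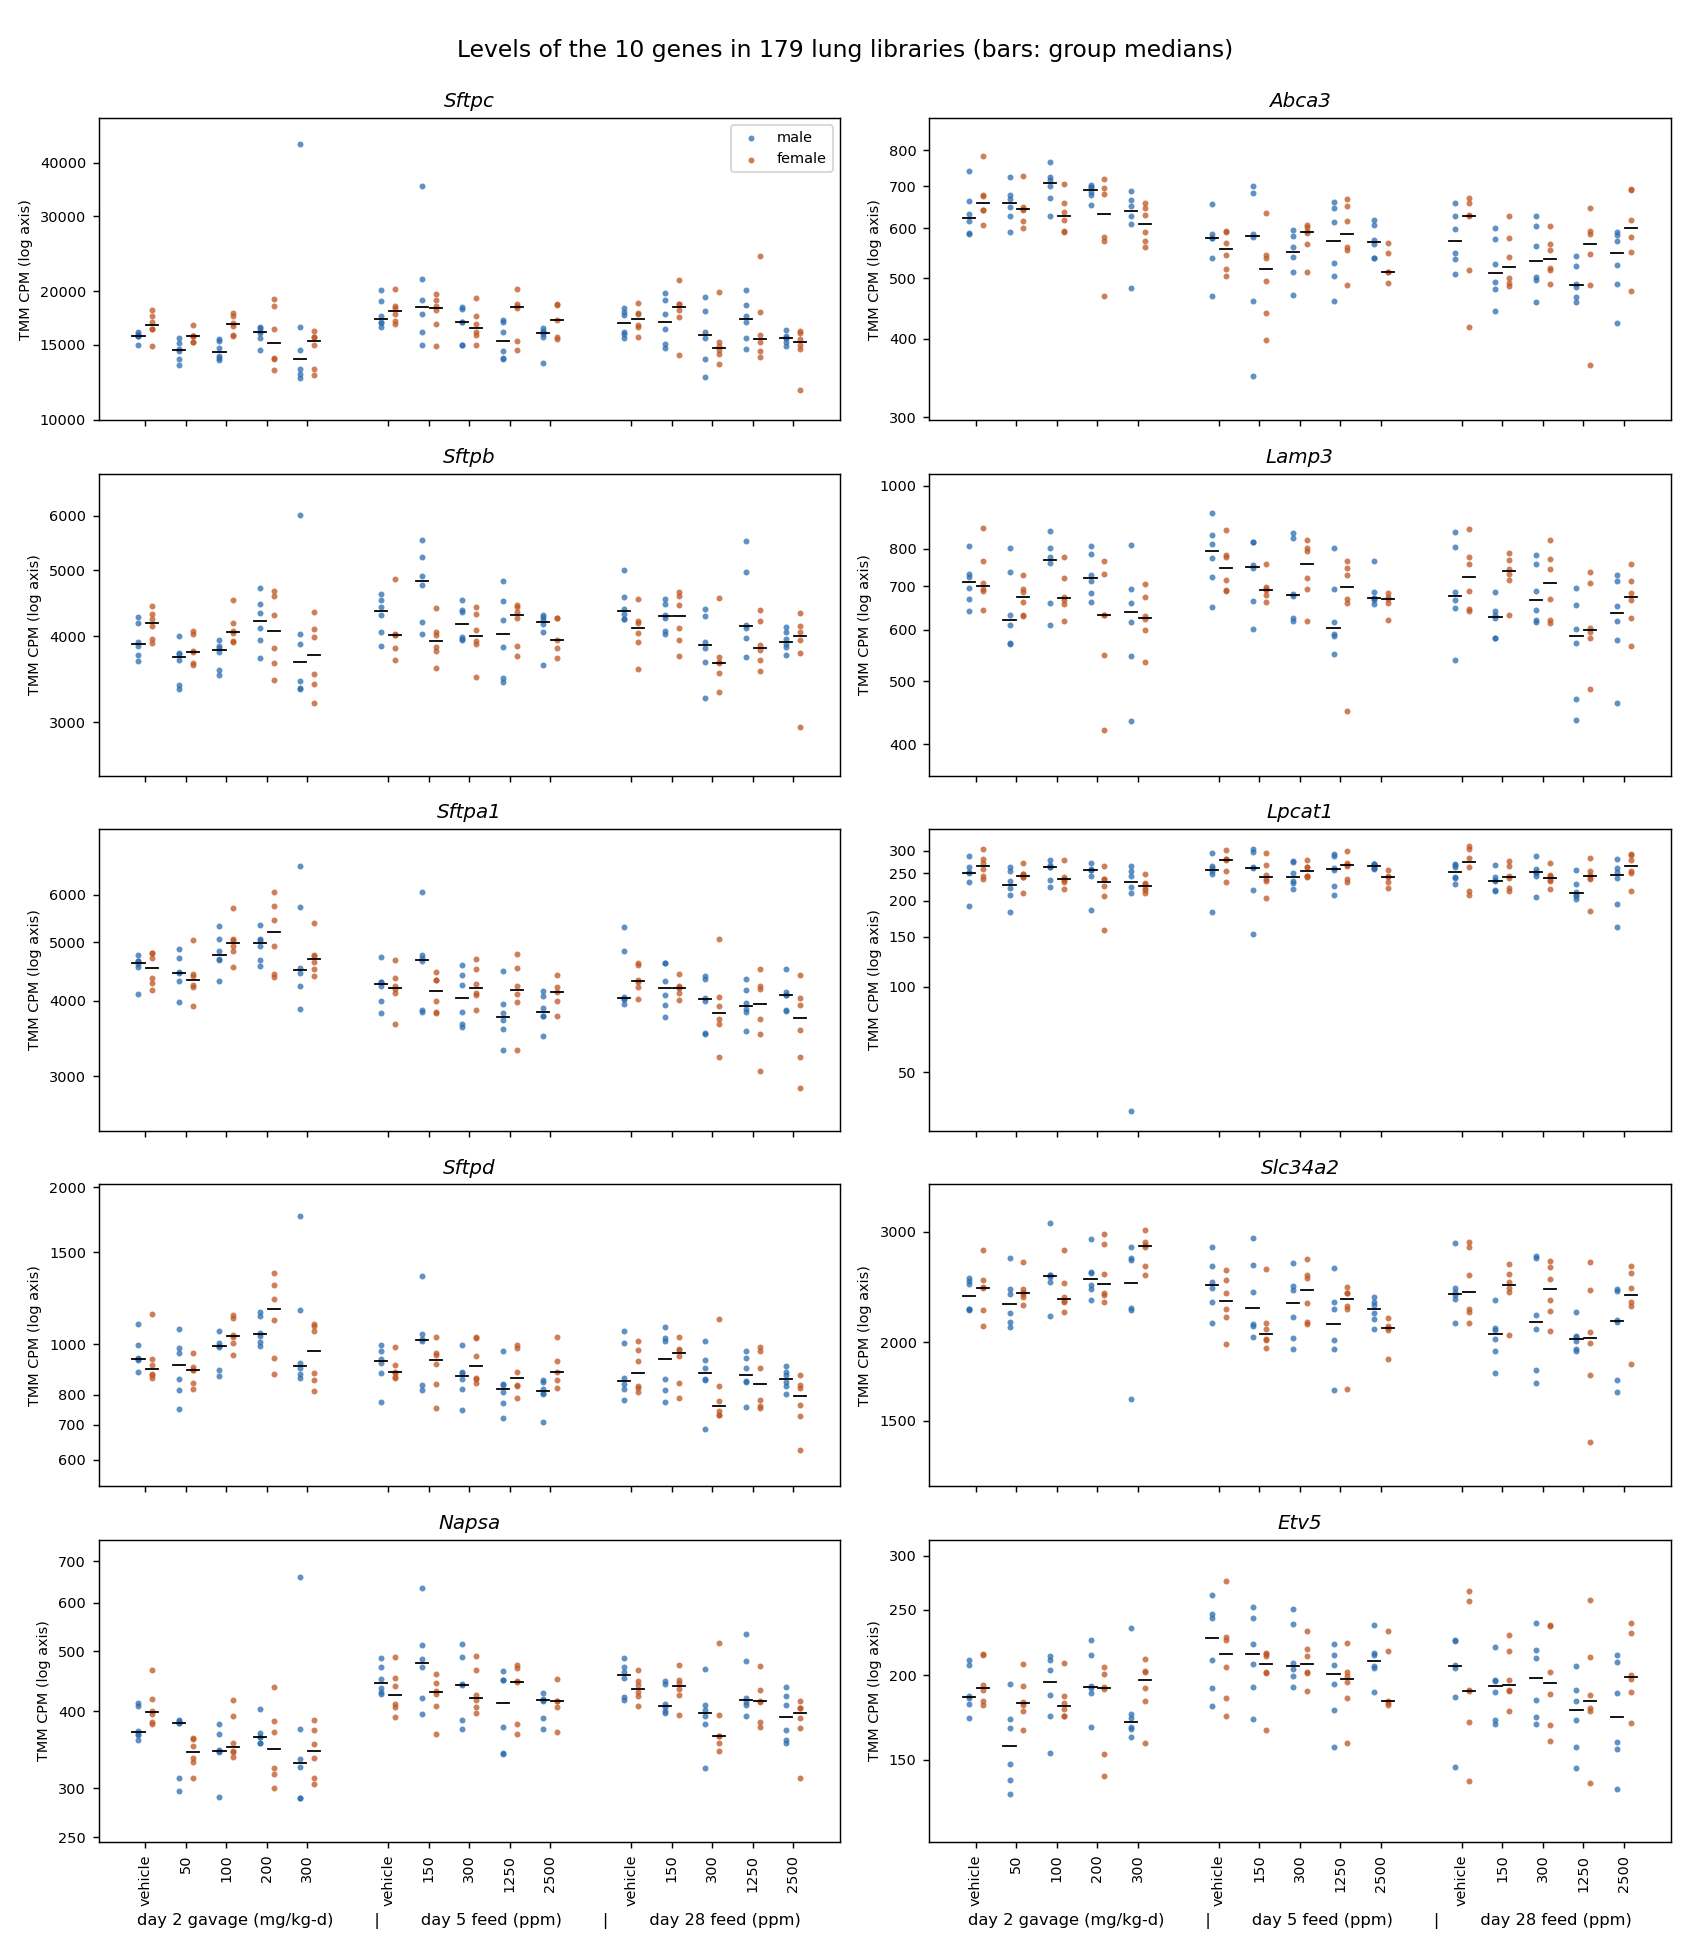
Levels of the 10 genes in all 179 lung libraries, in TMM-scaled CPM on a log axis, by day, sex and dose; points are libraries and bars are group medians. The group medians of a gene stay close to each other, and 1 library of the day 2 males at 300 mg/kg-d (Sftpc 44251 CPM) and 1 of the day 5 males at 150 ppm (Sftpc 35224 CPM) lie far above their groups.

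Replicate 66, a male given 300 mg/kg-d on day 2, stood apart. Its Sftpc level was 44251 CPM, against 12518 to 16482 in the other 5 libraries of its group, 3.37-fold their median. Sftpb (6015 CPM against 3349 to 4035), Sftpd (1761 against 861 to 1164) and Napsa (659 against 289 to 375) were also above the whole group. Lpcat1 was far below it, at 36.7 CPM against 214 to 265, and Slc34a2 was at 1624 against 2254 to 2832. In this library the difference from the group went with gene length over the whole table: the median log2 difference was 1.14 for genes with up to 1500 bases of exon, 0.56 for those over 1500 and up to 3000, -0.02 for those over 3000 and up to 6000, and -0.61 for those over 6000. The slope on log2 length was -0.46, and the next lowest of the day was -0.05. Summed club cell markers (8 genes, Scgb1a1 and others) reached 120716 CPM in it, against a median of 39755 on that day. The part of either in these levels was not tested.

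Replicate 98, a male at 150 ppm on day 5, showed a smaller form of the same pattern. Its Sftpc was 35224 CPM against 15003 to 21367 in the other 5, and the 4 length classes gave 0.59, 0.31, -0.01 and -0.35. Its slope was -0.24, with the next at -0.11. Its club marker sum was 116862 CPM, against a day median of 41493. Replicate 217, a female at 1250 ppm on day 28, had a slope of -0.21, with the next at -0.11, and class medians of 0.47, 0.21, -0.06 and -0.36. It held 24165 CPM of Sftpc against 14013 to 17900 in the other 5, and 1386 of Slc34a2 against 1775 to 2689. All 3 libraries were kept, and results that rest on them are also given without them.

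**Figure D2:**
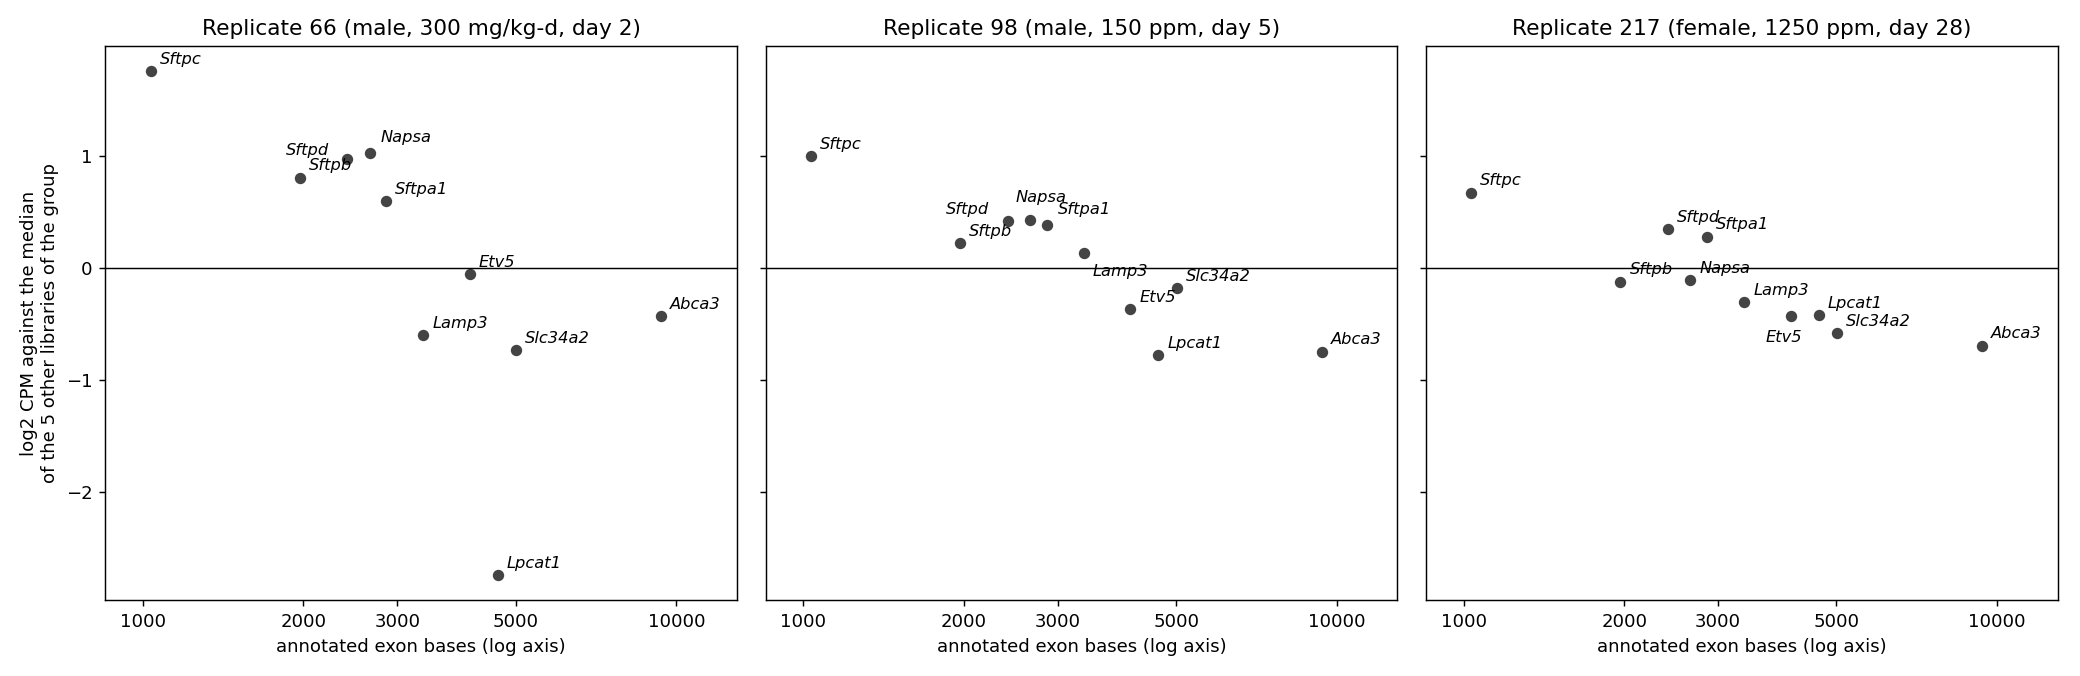
Log2 difference of each gene in a library that stood apart from the median of the others of its group, against exon length in bases (log axis). Sftpc, the shortest, lies highest in replicates 66, 98 and 217, and Lpcat1 (36.7 CPM in replicate 66) lies lowest in replicate 66.

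No gene of the list passed the test at any dose. Over 24 comparisons of a dose with the vehicle group of its day and sex, 0 of 240 values had an adjusted p under 0.05 (edgeR's quasi-likelihood test, adjusted by Benjamini and Hochberg over all genes of a comparison). At an unadjusted p under 0.05 there were 26 values, 4 higher and 22 lower, and over all genes and the same comparisons 4.89% of values were higher and 4.45% lower at that level. DESeq2 also called 0, with 28 at that unadjusted level. Log2 fold changes ran from -0.29 (Lamp3, day 5 males, 1250 ppm) to 0.29 (Sftpd, day 2 females, 200 mg/kg-d), with a median of -0.07 and a median SE of 0.10. The intervals bound what could have been missed: for 238 of 240 values the 95% interval lay within a 1.5-fold change either way, for all 240 within 2-fold, and the 2 exceptions were both Lpcat1. The comparisons of a day and sex share 1 vehicle group, so their values are not independent of one another. In whole lung, fewer type 2 cells and less RNA per cell cannot be told apart.

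After gavage on day 2, 0 of 10 genes passed in males at any dose. The share of all tested genes called was 0% at 50, 0.00656% at 100, 0% at 200 and 0.21% at 300 mg/kg-d. In females it was 0%, 0.00656%, 5.41% and 8.73%, and again 0 of the 10 genes were among those called. The females at 300 mg/kg-d held the lowest adjusted p of all, that of Slc34a2. It ranged over 2126, 2444 and 2805 CPM in vehicle females (lowest, median, highest) and over 2559, 2845 and 3020 at 300 mg/kg-d. All 6 dosed libraries lay above the vehicle mean, although the groups overlapped. The log2 difference was 0.21 (SE 0.09, adjusted p = 0.120). Without replicate 66, a male library that enters through the shared estimate of spread, that value was 0.21 with an adjusted p of 0.0350, in a fit that called 18.5% of all genes.

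Napsa gave the opposite sign in the same females. Vehicle libraries held 381, 398 and 466 CPM and those of 300 mg/kg-d 305, 344 and 387, with all 6 below the vehicle mean and a small overlap. Its log2 difference was -0.24 (SE 0.11, adjusted p = 0.175, and 0.0214 without replicate 66). Lpcat1 was at 239, 265 and 305 CPM in vehicle and 213, 226 and 249 at 300 mg/kg-d, a log2 difference of -0.22 (adjusted p = 0.480). When the fit held the vehicle and dose group alone, the adjusted p was 0.0479 for Slc34a2, 0.0240 for Napsa and 0.0212 for Lpcat1. That fit called 18.5% of all genes. The other 7 genes lay between -0.20 (Lamp3) and 0.07 (Sftpa1), and Sftpc was at -0.18.

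Surfactant protein D gave its highest value at the next dose down and did not pass. Sftpd held 862, 894 and 1141 CPM in vehicle females and 876, 1166 and 1372 at 200 mg/kg-d, with 5 of 6 above the vehicle mean. The log2 difference of 0.29 had an SE of 0.11 and an adjusted p of 0.125. Without replicate 66 that adjusted p was 0.0266, in a fit that called 11% of all genes. At 300 mg/kg-d its value was 0.05. Sftpa1, its neighbour on chromosome 14, gave 0.20 (adjusted p = 0.179) at 200 mg/kg-d and 0.07 at 300. In the females of 200 mg/kg-d, replicate 64 held the highest Sftpd and Sftpa1, with the next at 1301 and 5740 CPM. It also held the lowest Abca3, Lamp3, Etv5 and Lpcat1 of that group. Its summed neutrophil markers were 945 CPM, against a day median of 76.5, and their part in these values was not tested. At 50 mg/kg-d all 10 values were negative in females, with a median of -0.09, and for Napsa the groups did not overlap: 381 to 466 CPM in vehicle and 312 to 362 at 50 mg/kg-d (log2 -0.25, unadjusted p = 0.0271). Groups of 0.623% of all tested genes did not overlap in that comparison.

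In males of 300 mg/kg-d the values rested on replicate 66. With that library, Sftpc was at 0.28 (SE 0.15) and Lpcat1 at -0.25 (SE 0.18). Without it they were -0.17 (SE 0.07, adjusted p = 0.254) and -0.03. Napsa moved from -0.00 to -0.24 (unadjusted p = 0.00476, adjusted p = 0.128), Sftpd from 0.17 to -0.03 and Sftpb from 0.03 to -0.12. In that fit 1.13% of all genes were called. Without this library Napsa in females at 300 mg/kg-d was also at -0.24. It passed there (adjusted p = 0.0214), in a comparison that called 18.5% of all genes, and Napsa in males did not. Etv5 had a median of 186 CPM in vehicle males and 157.5 at 50 mg/kg-d (log2 -0.26, SE 0.09), at a dose with 0% of genes called.

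On day 5 the largest differences were in males at the higher feed levels, and 0 of 10 genes passed. The shares of all genes called in males were 0%, 0%, 0.0383% and 0% at 150, 300, 1250 and 2500 ppm. In vehicle males Sftpc stood at 16475, 17230 and 20135 CPM. At 1250 ppm it was 13901, 15282 and 17143, and at 2500 ppm 13585, 15945 and 16441. The highest library of 2500 ppm was thus below the lowest vehicle library, with a log2 difference of -0.19 (adjusted p = 0.639), and 1.17% of all tested genes had groups that did not overlap. Lamp3 was at 651, 793 and 907 CPM in vehicle, at 551, 605 and 800 at 1250 ppm (log2 -0.29, SE 0.09, adjusted p = 0.246) and at 658, 672 and 767 at 2500 ppm (-0.19). Sftpd went from 776, 928 and 995 CPM in vehicle to 710, 814 and 855 at 2500 ppm, a log2 difference of -0.18 with all 6 libraries below the vehicle mean. Abca3 and Lpcat1 gave 0.01 and 0.07 there. At 150 ppm, Sftpc gave 0.22 with replicate 98 and -0.00 without it.

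Females of day 5 gave smaller values. The shares of genes called were 0%, 0.0128%, 0.0447% and 0.0319%, none of them from the list. At 2500 ppm, Sftpc, Sftpb, Sftpa1 and Sftpd lay between -0.08 and 0.01. Lamp3 was the gene whose groups did not overlap, with 687, 747 and 855 CPM in vehicle and 621, 669 and 684 in the 5 libraries of 2500 ppm. Its log2 difference was -0.18 (adjusted p = 0.948), and 0.727% of all tested genes did not overlap.

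After 28 days of feeding, 0 of 10 genes passed in either sex. All 10 values were negative in males at 2500 ppm, with a median of -0.14, and between them these values spanned -0.21 (Slc34a2) to -0.06 (Sftpd). The background was 0%, 0%, 0.032% and 0.0128% of genes called in males and 0.032%, 0.153%, 0.0831% and 0.121% in females, from 150 to 2500 ppm. Sftpb in males was at 4239, 4354 and 4999 CPM in vehicle and 3762, 3929 and 4128 at 2500 ppm, with no overlap (log2 -0.18, adjusted p = 0.649, and 0.799% of genes without overlap). Napsa held 417, 458 and 487 CPM in vehicle and 355, 391 and 438 at 2500 ppm, with all 6 below the vehicle mean and a log2 difference of -0.20 (SE 0.08, adjusted p = 0.542). At 1250 ppm Lamp3 gave -0.28, Slc34a2 -0.25 and Abca3 -0.22 in these males, with adjusted p of 0.231, 0.321 and 0.342.

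In females of day 28 at 2500 ppm, Sftpa1, Sftpc, Sftpd and Napsa gave the largest values. Sftpa1 was at 4030, 4312 and 4618 CPM in vehicle and 2862, 3753 and 4414 at 2500 ppm. Of the 6 libraries, 5 lay below the vehicle mean, and the log2 difference was -0.25 (SE 0.09, adjusted p = 0.257). Sftpc went from 15668, 17206 and 18763 CPM to 11744, 15228 and 16166 (-0.22, adjusted p = 0.435). Sftpd gave -0.22 (adjusted p = 0.384) and Napsa -0.19 (adjusted p = 0.341), each with all 6 libraries below the vehicle mean. Lamp3 followed at -0.13, Slc34a2 at -0.09 and Sftpb at -0.08, and Abca3, Etv5 and Lpcat1 gave 0.03, 0.01 and -0.01. At unadjusted p under 0.05 there were 4 of the 10 genes, all lower, where 5.13% of all genes were lower at that level. At 300 and at 1250 ppm all 10 values were negative, with medians of -0.13 and -0.10. Without replicate 217, those of 1250 ppm included -0.18 for Slc34a2 (-0.27 with it), -0.15 for Sftpc (-0.01 with it) and 0.01 for Etv5. All genes had a median near 0 in these comparisons.

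**Figure D3:**
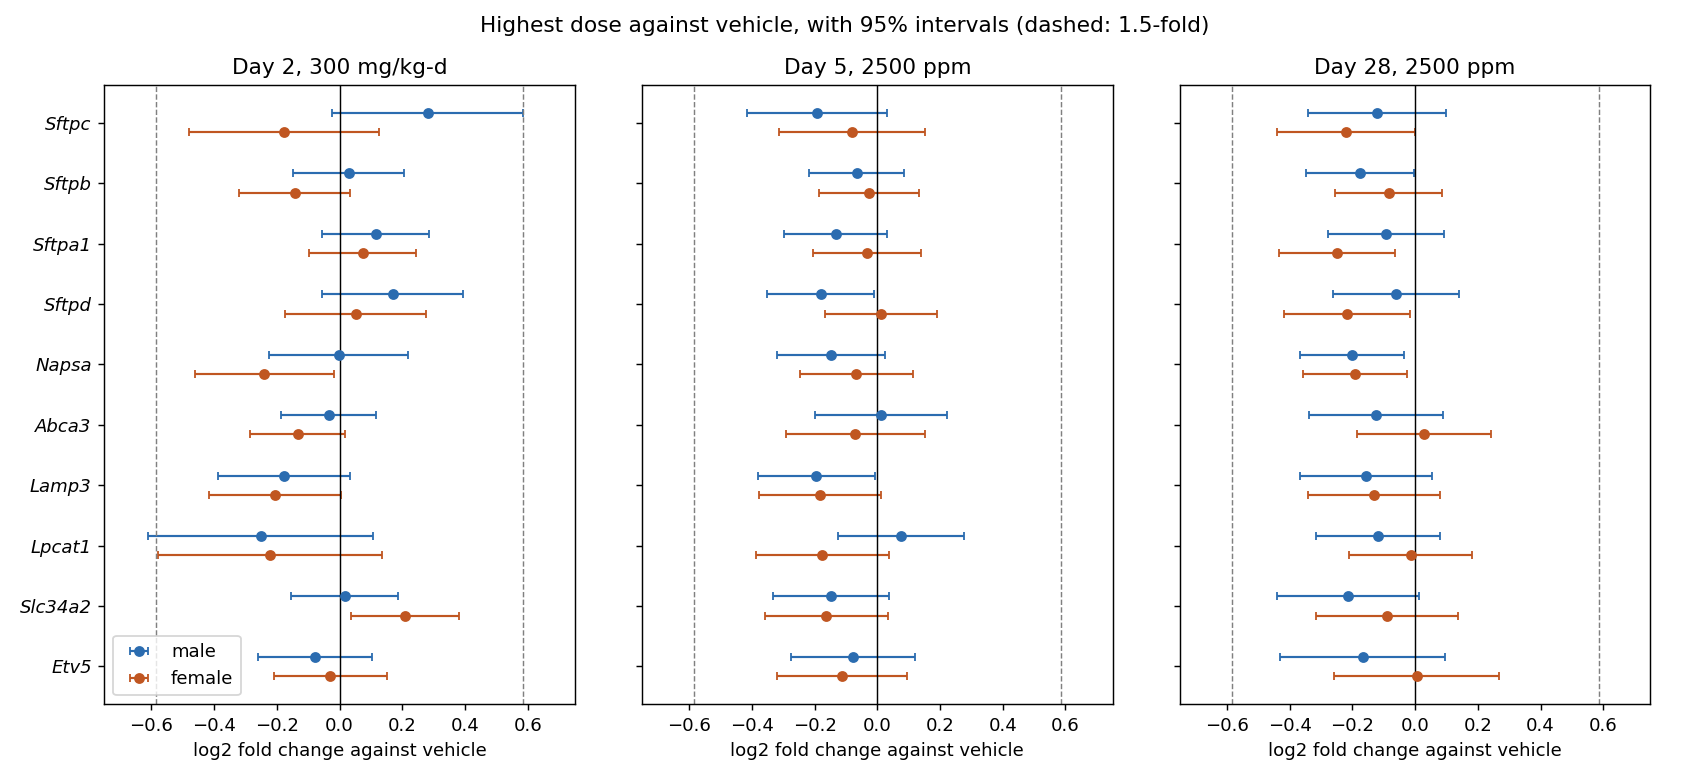
Log2 fold change of each gene at the highest dose of each day and sex against vehicle, with its 95% interval. Every interval is compared with 0; values run from -0.25 to 0.28, and none passed the test after adjustment.

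The dose trend used all 5 groups of a day and sex, with doses coded by rank, and gives a log2 change per dose step. Again 0 of 60 values passed, with 17 at an unadjusted p under 0.05, 4 higher and 13 lower, where 7.75% of the values of all genes were higher and 6.98% lower. DESeq2 called 3 of the 60. The males of day 5 held 7 of the 17, all negative, where 9.65% of all genes were lower at that unadjusted level and 1.28% were called in either direction. Sftpc gave -0.08 per step (SE 0.02, adjusted p = 0.0765), Sftpd -0.07 (adjusted p = 0.0629) and Sftpa1 -0.05 (adjusted p = 0.103). Napsa, Lamp3, Slc34a2 and Sftpb lay between -0.06 and -0.04. DESeq2 put Sftpc at an adjusted p of 0.0343 and Sftpd at 0.0251, with 4.08% of genes called. Without replicate 98, a library of the lowest feed level above 0, Sftpc was at -0.06 (adjusted p = 0.0822) and Sftpd at -0.06 (adjusted p = 0.0852). Lpcat1 and Abca3 gave 0.02 and 0.01.

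Elsewhere the trends divided by gene. In females of day 28, 5 of 10 genes were at an unadjusted p under 0.05, all negative, against 4.94% of all genes, and 0.0511% of genes were called. Sftpa1 was at -0.06 (adjusted p = 0.240), with Sftpd, Sftpc, Lamp3 and Napsa between -0.05 and -0.04. Males of day 28 had 10 of 10 negative values with a median of -0.03, none at that level, and 0.00639% of genes called. In females of day 5 the median was -0.01, with 0.0255% called. In females of day 2, where 17.1% of genes were called, Slc34a2 was at 0.05 (adjusted p = 0.0572), Lamp3 at -0.05 (adjusted p = 0.121) and Sftpa1 at 0.04 (adjusted p = 0.164). Lpcat1 had the largest value, -0.06 (SE 0.04, adjusted p = 0.344), and Sftpd, Napsa, Sftpc, Abca3, Sftpb and Etv5 gave 0.05, -0.04, -0.03, -0.03, -0.02 and -0.01. Without replicate 66 the adjusted p was 0.0145 for Slc34a2 and 0.0250 for Lpcat1, with opposite signs, in a fit that called 27.3% of all genes. DESeq2 gave 0.0404 for Slc34a2, with 17.3% of genes called. In males of day 2, with 1.38% called, Sftpc gave 0.07 with replicate 66 and -0.02 without it.

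**Figure D4:**
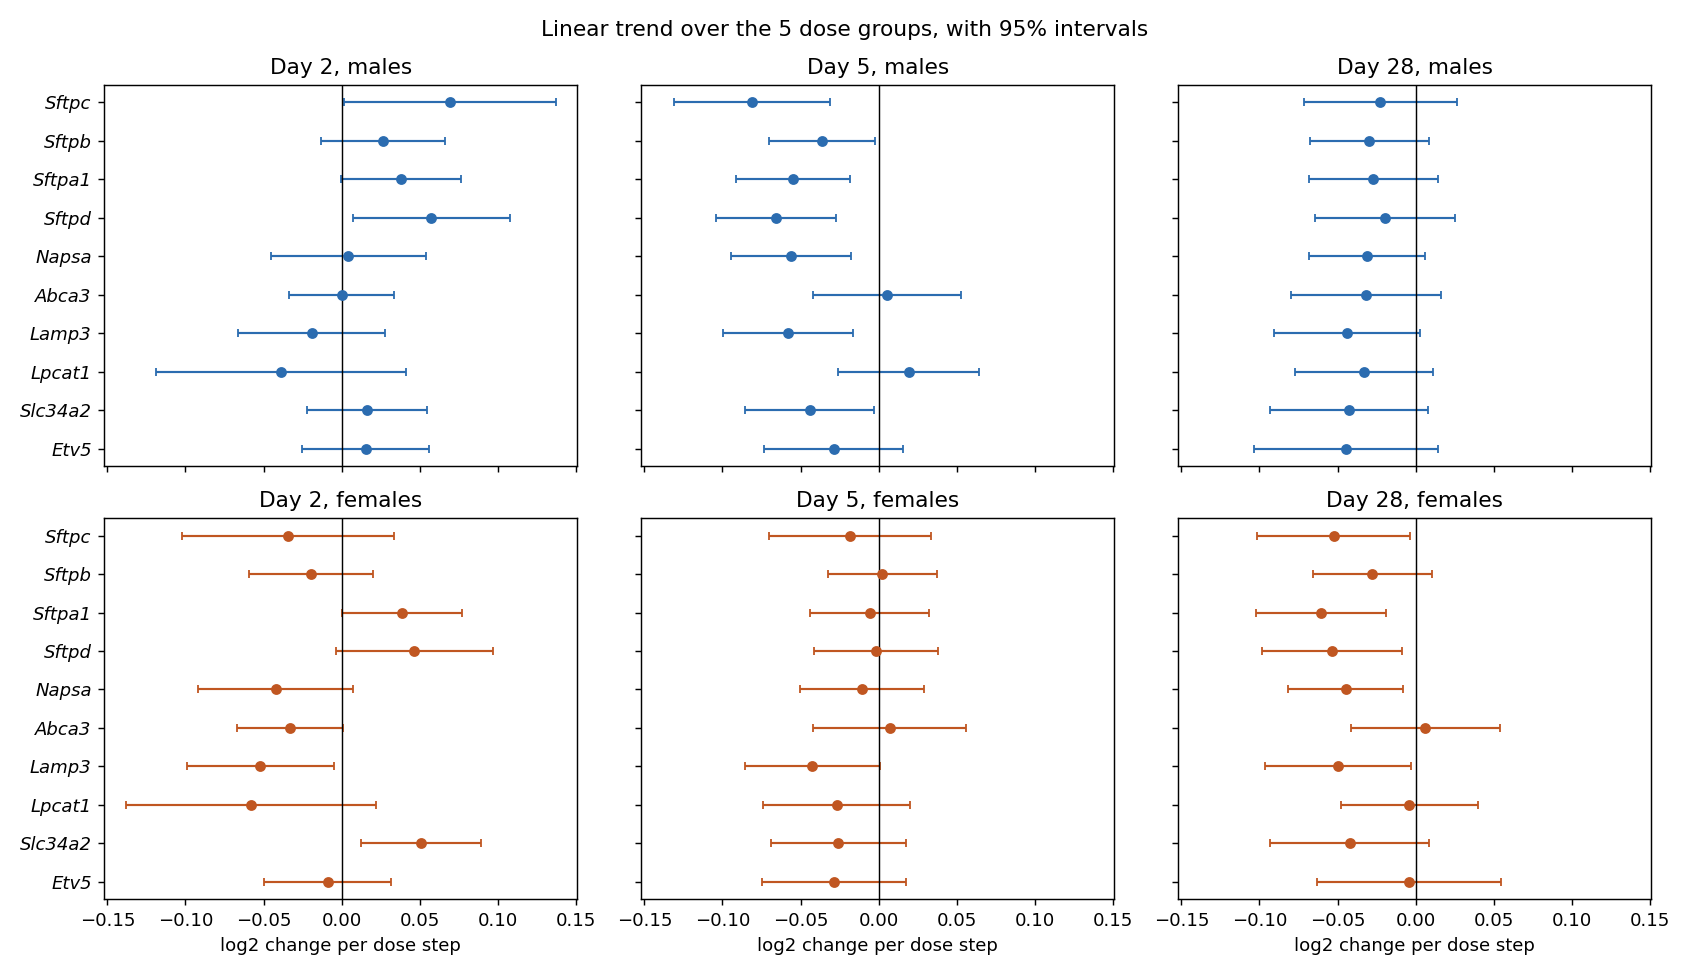
Log2 change per dose step of each gene, by day and sex, with its 95% interval. In males of day 5 the values of Sftpc (-0.08) and Sftpd (-0.07) lie below 0 with their whole interval, and none of the 60 values passed after adjustment.

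Nkx2-1, the transcription factor named above, did pass in males of day 5. It fell at 1250 ppm, 1 of 6 genes called of 15675 (0.0383%), 5 of which fell (0.0319%). Its levels were 253, 273 and 276 CPM in vehicle, 234, 293 and 334 at 150 ppm, 224, 230 and 248 at 300 ppm, 194, 208 and 228 at 1250 ppm and 207, 237 and 258 at 2500 ppm. The libraries of 1250 ppm did not overlap with vehicle, and the highest of all were at 150 ppm. The log2 difference was -0.36 (SE 0.08, adjusted p = 0.0496 by edgeR). It was called in 10 of 12 alternatives, with adjusted p from 0.00400 to 0.0758, and lost with no filter on low counts and in the fit of the vehicle and dose group alone. Per dose step Nkx2-1 fell by 0.08 on the log2 scale (adjusted p = 0.0111), a call lost in 1 of 13 alternatives, that with dose coded by its value. In the comparison at 1250 ppm Ucp1, 1 of 6 adipocyte markers, was also called, and it rose (log2 8.81, SE 1.82). The summed adipocyte markers were 19.8, 46.9 and 79 CPM in vehicle and 23.3, 36.2 and 384 at 1250 ppm, none of the 6 at 0 throughout a group, and their part in the result was not tested.

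Other genes of the pathway in the same trend, from lists of known type 2, lipid, processing and transcription genes, were called with a negative sign, in a trend where 0.657% of all genes fell. Of 18 further type 2 markers 3 fell: Muc1, a membrane mucin (-0.09 per step, adjusted p = 0.0224), Pla2g1b, a secreted phospholipase (-0.11, adjusted p = 0.0370), and Ppp1r14c, a phosphatase inhibitor (-0.08, adjusted p = 0.0450). Of 19 tested genes of surfactant lipid synthesis 1 fell, the choline kinase Chka (-0.07, adjusted p = 0.0454). Of 15 genes of protein processing and lamellar bodies 1 fell, Ctsh, a cathepsin that cuts the precursor of surfactant protein B (-0.09, adjusted p = 0.0194). Of 15 transcription and FGF genes 2 fell, Nkx2-1 and the forkhead factor Foxa2 (-0.07, adjusted p = 0.0445). Over 13 alternatives these calls were lost in 1 for Muc1, 2 for Ctsh, 3 for Pla2g1b, 4 for Foxa2 and Chka and 5 for Ppp1r14c. With dose coded by its value every one of them was lost, and that of Nkx2-1 as well. Without the highest dose group the calls of Ctsh, Pla2g1b, Foxa2, Chka and Ppp1r14c were also lost. The surfactant clearance list had 0 of 8. All genes had a median of -0.00 and the type 2 marker list one of -0.05.

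Endothelial markers moved the other way in that trend. Of 8, 3 rose (Kdr 0.14, Ptprb 0.13 and Tek 0.09 per step), none fell, and none was at 0 throughout a group, in the trend that called 1.28% of all genes. Their summed level was 4387, 5020 and 5585 CPM in vehicle and 5478, 5945 and 7460 at 2500 ppm. Type 1 and club lists had 0 called, with summed type 1 markers at 12676, 13223 and 13534 CPM in vehicle and 12601, 13209 and 13573 at 2500 ppm. The part of the endothelial shift in the values of the 10 genes was not tested.

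In females of day 2 other type 2 genes passed where the 10 did not. At 300 mg/kg-d, 3 of 18 further type 2 markers fell, where 5.09% of all genes fell: Acoxl, an acyl-CoA oxidase-like gene, Egfl6 and Cxcl15, a lung chemokine. Acoxl went from 45.8, 57.4 and 78 CPM in vehicle to 29.4, 37.3 and 41.6 (log2 -0.71, adjusted p = 0.00680). Its groups did not overlap, and the call held in all 11 alternatives. Egfl6 gave -0.42 and Cxcl15 -0.53, the latter lost in 5 of 11 alternatives. In the transcription and FGF list 2 of 15 rose, where 3.64% of all genes did. Fgf7, the fibroblast growth factor that makes type 2 cells divide, went from 31.3, 37.7 and 37.8 CPM to 43, 46.1 and 53.6 without overlap (log2 0.40, adjusted p = 0.00464), in all 11 alternatives. Foxa1 gave 0.27 (adjusted p = 0.0444), lost in 3. The lipid list had 1 of 19 higher, Cept1 at 0.16, and the processing and clearance lists had 0 of 15 and 0 of 8.

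Type 1 cell markers also fell there, 4 of 10, in the comparison where 5.09% of all genes fell and 3.64% rose. Pdpn, a surface glycoprotein of type 1 cells, had the lowest adjusted p, at 165, 189 and 218 CPM in vehicle and 104.5, 119.4 and 133.8 at 300 mg/kg-d. Aqp5, Vegfa and Emp2 were the others. The summed type 1 level was 12448, 12956 and 13700 CPM in vehicle and 11246, 11647 and 11977 at 300 mg/kg-d, without overlap. Of 9 T and NK markers 6 fell, with sums of 51, 65 and 90.01 CPM in vehicle and 18.6, 28.0 and 62.3 at 300 mg/kg-d. Of 7 skeletal muscle markers 6 were tested and 3 rose, with sums of 14.2, 35.4 and 49.5 CPM against 20.4, 33.4 and 232. None of these 3 lists had a gene at 0 throughout either group. Fibroblast markers had 1 of 7 higher (Pdgfra) and 1 lower (Inmt), with sums of 3770, 4013 and 4460 CPM in vehicle and 2980, 3442 and 3618 at 300 mg/kg-d, again without overlap. Club markers had 1 of 8 higher, Aldh1a1 (log2 0.55), and their sums overlapped, at 32147, 37653 and 43864 CPM against 36855, 39043 and 46989. Mesothelial markers had 1 of 5 higher (Prg4) and 1 lower (Lrrn4), with overlapping sums of 187.9, 257.0 and 353.7 CPM against 196.4, 229.9 and 352.8. Of 6 hepatocyte markers 2 were tested and both were called lower, Alb and Ahsg. The hepatocyte sums were 2.17, 2.66 and 336.3 CPM in vehicle and 1.38, 2.99 and 3.72 at 300 mg/kg-d, where Serpina1a was at 0 throughout, so that the medians were close and the highest vehicle library stood far above the rest. Pdpn (log2 -0.43) and Emp2 (-0.28) were called lower in males at 300 mg/kg-d too, where 0.105% of all genes fell. Each of these male calls was lost in 1 of 11 alternatives. The part of these cell types in the values of the 10 genes was not tested.

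Over the 5 groups of day 2 females, 4 of 18 further type 2 markers fell: Acoxl (-0.17 per step), Egfl6 (-0.12), Cldn18, a tight junction protein (-0.07), and Cxcl15 (-0.12). The calls of Acoxl, Egfl6 and Cldn18 held in all 12 alternatives and that of Cxcl15 was lost in 3. Of 15 transcription and FGF genes 5 rose (Foxa1, Fgf7, Foxa2, Spry1 and Gata6, from 0.04 to 0.08 per step), and 0 fell; Gata6 had the highest adjusted p of these and was named after its value was seen. Without the highest dose group 4 of these 5 calls were lost, with adjusted p of 0.170 for Foxa1, 0.477 for Fgf7, 0.406 for Foxa2 and 0.654 for Gata6, and Spry1 was kept in all 12 alternatives. Gata6 was lost in 3. Of all genes 8.09% rose and 8.98% fell in this trend. The lipid list had 2 of 19 higher (Cept1 and Lpin1) and 1 lower (Elovl1), lost in 1, 5 and 5 alternatives. Ctsh rose in this trend by 0.12 per step (adjusted p = 0.00508, and 0.0682 without the highest dose group), where it had fallen in males of day 5. The difference of those trends was not tested, and the fall in males was lost with dose coded by its value and without the highest dose group. In the trend of day 2 females the alveolar macrophage markers Mrc1 (0.08 per step) and Chil3 (0.09) were called higher. These calls were lost in 1 and 6 of 12 alternatives. Type 1 and T and NK markers were called lower, Pdpn (-0.17) and Ncr1 (-0.47) among them. The part of these cell types in the values of the lists was not tested. At 2500 ppm in feed the type 2 marker, lipid, processing, transcription and clearance lists had 0 called in each sex on days 5 and 28. Few genes of any kind were called there: 0% in males and 0.0319% in females of day 5, and 0.0128% and 0.121% on day 28. The median of the 18 type 2 markers was -0.13 and -0.11 in males and females of day 5 and -0.08 and -0.12 on day 28.

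The sexes were compared in vehicle lungs and at the highest dose. In vehicle groups 0 of 30 values passed and none was at an unadjusted p under 0.05 (edgeR, lowest adjusted p = 0.585), where 0.164%, 0.293% and 0.364% of all genes were called on days 2, 5 and 28. Sftpc in females minus males was 0.09, 0.02 and 0.03, with SE of 0.15, 0.11 and 0.11. The sex difference of the highest dose effect had 0 of 30, and 0% of all genes were called on each day. The value of Sftpc on day 2, -0.46 (SE 0.21, adjusted p = 0.370), was the 1 at an unadjusted p under 0.05, and it was -0.01 without replicate 66. Between day 5 and day 28, 0 of 20 values passed in vehicle lungs, with 0.249% of genes called in males and 0.617% in females. The effect of 2500 ppm differed between these days in 0 of 20, with 0% of genes called, and none of these values was at an unadjusted p under 0.05.

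The 10 genes varied together between libraries of a group. After subtraction of group means, each gene was set against the mean of the other 9 within a day, which gave 30 relations with permutation p-values adjusted over the 30. On day 2 (60 libraries) Spearman's rho ran from 0.37 (Lpcat1) to 0.80 (Napsa) with a median of 0.59. On day 5 (59 libraries) it ran from 0.37 (Abca3) to 0.76 (Napsa), median 0.70, and on day 28 (60 libraries) from 0.39 (Abca3) to 0.78 (Napsa), median 0.61. Both Pearson's r and rho passed in 27 of 30. The exceptions passed by rho and not by r. Sftpc on day 2 had r = 0.16 (adjusted p = 0.363) and rho = 0.47, Lpcat1 on day 2 r = -0.15 (adjusted p = 0.557), and Abca3 on day 5 r = 0.28 (adjusted p = 0.111) and rho = 0.37. Without replicates 66 and 98 all 30 passed, with r of 0.67 for Sftpc and 0.61 for Lpcat1 on day 2. The genes of a library share its depth and its length pattern. Other sets of genes were not tested in this way, so the count of 27 is not shown to be particular to these 10.

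Pairs fell into 2 sets of 5, a division made after the values were seen. Over 179 libraries and 45 pairs, the 10 pairs among Sftpc, Sftpb, Sftpa1, Sftpd and Napsa had a median rho of 0.72 (0.58 to 0.85). The 10 pairs among Abca3, Lamp3, Slc34a2, Etv5 and Lpcat1 had one of 0.59 (0.39 to 0.73). The 25 pairs across the sets had 0.27 (0.01 to 0.53). The division also followed gene length. Exons of a gene covered 1034 to 2860 bases in the first set and 3356 to 9374 in the second. On days 5 and 28, rho with the length slope of a library was negative for each gene of the first set. It was positive for each gene of the second, and not all of these values passed. On day 2, Abca3 and Etv5 of the second set gave -0.02 and -0.06. With the length pattern removed from each library the 3 medians were 0.71, 0.58 and 0.45, and without replicates 66 and 98 they were 0.71, 0.60 and 0.36. The difference between sets was thus smaller once gene length was taken out. The ranges were then 0.55 to 0.83 in the first set, 0.26 to 0.74 in the second and 0.16 to 0.64 across them. Because the sets were drawn from these same values, the medians describe the division and do not test it.

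The closest pair was Sftpb and Napsa, the protease that acts on its product, with r = 0.87 and rho = 0.85 (r = 0.84 without the 2 libraries farthest from the median). Sftpa1 and Sftpd, the neighbours on chromosome 14, followed with r = 0.85 and rho = 0.84 (r = 0.83). Sftpc and Sftpd gave r = 0.79 and rho = 0.76, Lamp3 and Slc34a2 r = 0.73 and rho = 0.73, and Abca3 and Lpcat1, the lipid transporter and the lipid enzyme, r = 0.63 and rho = 0.72. The permutation p of each of these 5 was 1e-05, the smallest that 100000 resamples give, and its adjusted value 2.14e-05 for r and 1.61e-05 for rho. The value for Sftpc and Lpcat1 moved with single libraries: r was -0.48 (adjusted p = 0.0853) with rho at 0.04, and r was -0.04 without the 2 farthest libraries.

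**Figure D5:**
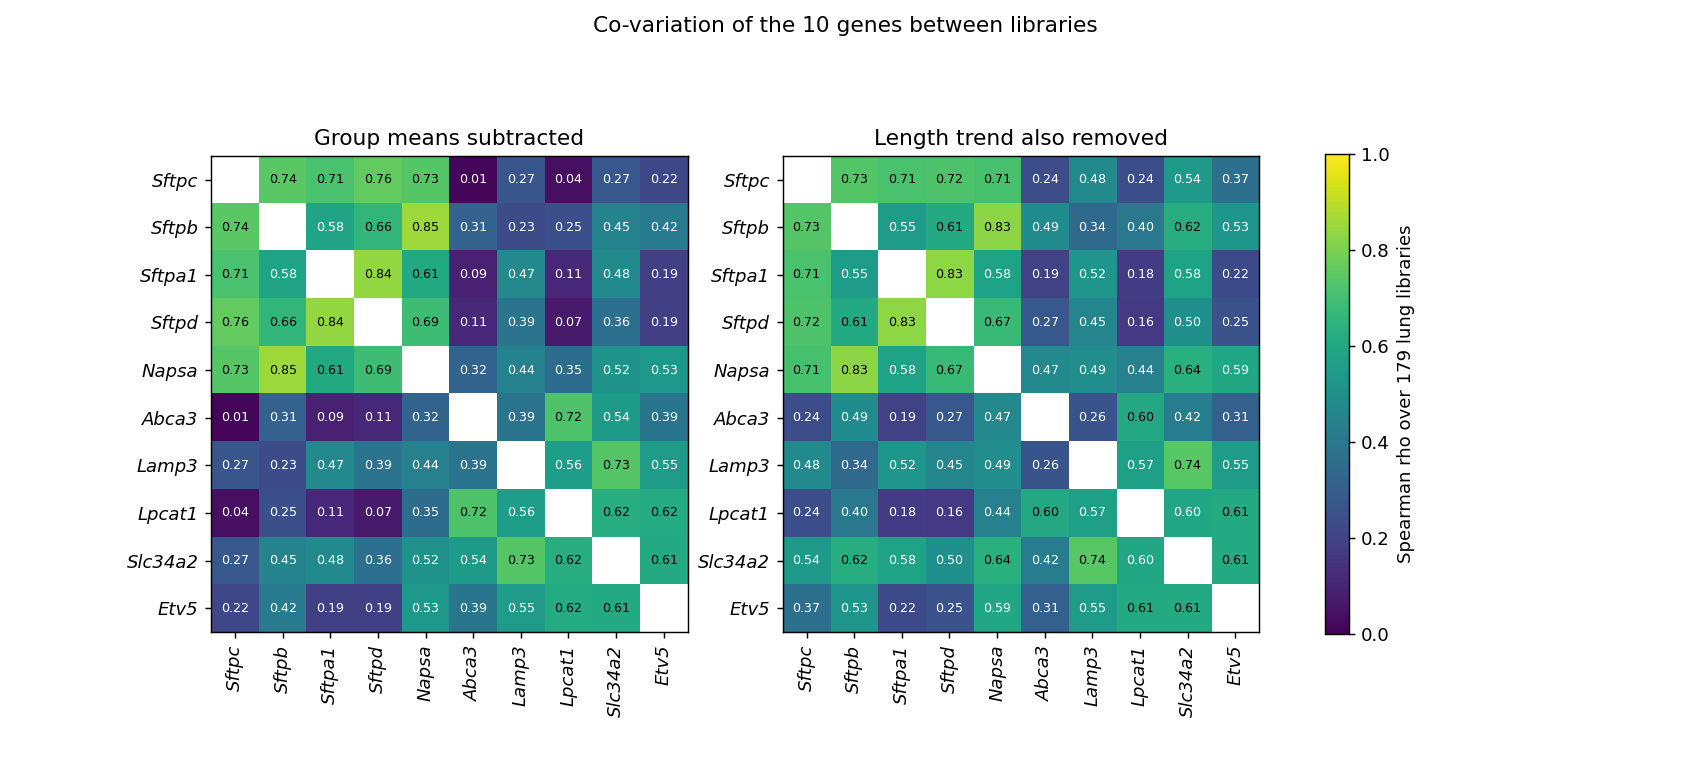
Spearman's rho of each pair of the 10 genes over 179 libraries, after subtraction of group means (left) and with the length trend of each library also removed (right). On the left the pairs of Sftpb and Napsa (0.85) and of Sftpa1 and Sftpd (0.84) are the strongest and Sftpc with Abca3 (0.01) is the weakest; on the right Sftpc with Abca3 is at 0.24.

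Among 15151 other genes tested on all 3 days, those most like the mean of the 10 by their mean rho over the days were Mlc1 (0.79), Sdc1 (0.75), Lgi3 (0.72), Prnp (0.71), Ctsc (0.68) and Siglecf (0.67). Mlc1 and Lgi3 stood on the list of further type 2 markers. Sdc1 encodes a cell surface proteoglycan, Prnp the prion protein, Ctsc a lysosomal protease and Siglecf a lectin of alveolar macrophages. Mlc1 had rho of 0.78, 0.75 and 0.84 on days 2, 5 and 28. With the length pattern removed, Mlc1 remained first and these 6 ranked 1, 4, 3, 2, 5 and 11.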

How the data were processed

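RNA was measured by sequencing of 179 lung libraries (TruSeq Stranded mRNA, per the labels' protocols). The authors deposited raw read counts per gene symbol, 1 table per day. The submitters' processing notes name Trimmomatic, Bowtie2, SAMtools, HTSeq and mm10; their versions, the annotation and the strand setting are not stated there. Groups came from sample titles. At day 28, 1 column without a name held each gene's total over the 60 libraries and was left out. Counts were tested with edgeR 4.0.16 (R 4.3.3): filterByExpr, TMM, robust quasi-likelihood fits with 1 mean per group and day, Benjamini-Hochberg adjustment over 15240, 15675 and 15646 genes on days 2, 5 and 28, and a threshold of 0.05. Days 5 and 28 were joined (16047 genes tested) for differences between them. Scripts were tested on simulated data. Levels are TMM-scaled CPM, and log2 levels used a prior count of 2. Correlations used group-centred log2 CPM and two-sided permutation within groups (100000 resamples). Lengths are unions of GENCODE M21 exons. The 95% intervals cover the spread between libraries. DESeq2 1.42.0, other filters, scalings, dose codings and leaving out libraries were alternatives. The rule for named genes was all 10 genes in every comparison, up to 4 called genes of each other list by smallest adjusted p, and the 6 genes most like the mean of the 10. The text gives values for only some of the 10 in most comparisons, and these were chosen after their values were seen. Members and lists were chosen with earlier results of these data known. Siglec5 of the macrophage list, 1 gene, was not found under that name.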

Additional observations from a re-analysis of the deposited data

Results flagged for a closer look

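Each of the 10 genes was checked in each of the 30 groups for a library whose gap to its nearest neighbour took an unusually large part of the group's range (Dixon's 95% critical value). Of 300 such groups 30 were marked, 10%, where chance marks about 1 in 20. The 30 came from 18 libraries, 19 high and 11 low.

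Replicate 66 (day 2 male, 300 mg/kg-d) gave 5 of them: Sftpc at 44251, Sftpb at 6015, Sftpd at 1761 and Napsa at 659 CPM were high, and Lpcat1 at 36.7 CPM was low. Replicate 98 (day 5 male, 150 ppm) gave 1, Sftpc at 35224 CPM. Replicate 203 (day 28 female, 300 ppm) was high in 4 genes, with 19972 CPM of Sftpc, 4551 of Sftpb, 1117 of Sftpd and 516 of Napsa. A day 5 male of 2500 ppm was low in 3, with 13585 CPM of Sftpc, 3634 of Sftpb and 710 of Sftpd.

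On day 2, replicate 3 (male vehicle) was low in Sftpc at 14976 CPM and Sftpa1 at 4105 CPM. Replicate 10 (female vehicle) was high in Sftpd at 1141 CPM. Replicate 30 (female, 50 mg/kg-d) was high in Sftpc at 16654 and Slc34a2 at 2686 CPM. Etv5 was high in replicate 43 (female, 100 mg/kg-d) at 209 CPM and in replicate 68 (male, 300 mg/kg-d) at 235 CPM. In males of 200 mg/kg-d, Napsa was high in replicate 53 at 404 CPM and Lpcat1 was low in replicate 56 at 186 CPM.

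On day 5, Sftpb was high in replicate 96 (female vehicle) at 4860 CPM. At 150 ppm in females, Slc34a2 was high in 1 library at 2613 CPM and Etv5 low in another at 166 CPM. A female of 1250 ppm was low in Lamp3 at 450 CPM and Slc34a2 at 1686 CPM. Lamp3 was high in another male of 2500 ppm at 767 CPM. On day 28, Slc34a2 was high in replicate 211 (male, 1250 ppm) at 2234 CPM and Sftpc low in replicate 238 (female, 2500 ppm) at 11744 CPM.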

How the results depend on the processing

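No call of the 10 genes was lost or reversed, since none passed at first, and 8 single values came to pass under an alternative, in 16 pairs of value and alternative. Of the 240 dose values, 1 passed with the length trend removed, 3 with only the groups compared (48 at an unadjusted p under 0.05) and from 0 to 3 in the fits that leave out 1 library, the 3 without replicate 66. Of the 60 trend values, 3 passed with DESeq2, 1 with the length trend removed, 1 with dose coded by its value and from 0 to 2 without 1 library (2 without replicate 66, 1 without replicate 75 and 1 without a female of 2500 ppm on day 5). Where values of day 2 females came to pass, those fits called from 7.32% to 27.3% of all genes. For day 5 males the shares were 1.9% and 4.08%. Causes were not tested. The sex and day families stayed at 0 in all settings run. The count of gene to mean relations, 27 of 30, was 25 without TMM, 28 with the length trend removed and 30 without replicates 66 and 98. Libraries were left out in turn for the group of 5 and for replicates 12, 64, 66, 75, 78, 98, 176 and 217, which stood apart in these or earlier results. The alternatives without 98 or 217 and with the length trend removed were chosen after seeing the data. No paired analysis was possible because each number occurs in 1 lung library alone. At these depths all 240 intervals lay within 2-fold. The size of a difference that could be detected depended on the SE of each gene, with a median of 0.10 on the log2 scale.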
